A study of Rattus norvegicus with 30 samples.

Results

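MHC class II genes and Cd74 were examined in the brain of the rat 3 months after traumatic brain injury (TBI). The 4 genes were taken by their Ensembl identifiers, which are Cd74 (ENSRNOG00000018735), RT1-Da (ENSRNOG00000032844), RT1-Db1 (ENSRNOG00000032708) and RT1-Ba (ENSRNOG00000000451). All 4 were found among the 26404 genes counted in each brain area. Their names came with the identifiers and could not be checked, because the reference paired no identifier with a name. Adult male Sprague-Dawley rats were anesthetized and given either lateral fluid percussion injury (lateral FPI), in which a fluid pulse strikes the intact dura through an opening in the left side of the skull, or the same anesthesia and surgery with no pulse (sham operation). The TBI group was rats 6 to 10 and the sham group was rats 1 to 5, and the labels give no other treatment or genetic change for either group. The perilesional cortex, the thalamus and the hippocampus (dissected as the dentate gyrus with the adjoining CA3c-b) were taken from the same 10 rats, which gave 30 mRNA libraries. The question was whether the genes that present antigen differed between injured and sham-operated animals in each area.

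MHC class II molecules are pairs of an alpha and a beta chain that carry peptides from engulfed material to the cell surface, where CD4+ T cells read them. In the healthy brain they are scarce and are found mainly on microglia and on macrophages of the vessels, meninges and choroid plexus, and activated microglia carry more of them. RT1 is the name of the rat MHC. RT1-Da encodes the alpha chain and RT1-Db1 a beta chain of the D molecule, the counterpart of human HLA-DR. RT1-Ba encodes the alpha chain of the B molecule, the counterpart of human HLA-DQ. Cd74 encodes the invariant chain, which holds newly made class II molecules together, blocks their peptide groove and guides them to the endosome. Cd74 also serves at the cell surface as a receptor for the cytokine MIF.

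Transcription of these genes depends on a promoter element known as the X and Y boxes, to which the RFX and NF-Y complexes bind and onto which the coactivator CIITA is recruited. The promoters of all 4 genes were found by symbol in the RefSeq table of build GRCr8, and so rest on the given names. The 200 bases before the annotated start are shown on the gene's own strand. Capitals mark exact matches to GCAAC, a core of the X box, and to ATTGG, a core of the Y box, which reads CCAAT on the other strand. Both strands were searched, and the motifs were chosen with the sequences in view. Cd74 is at chr18:56527006-56527205 on the plus strand, RT1-Da at chr20:4515215-4515414 on the plus strand, RT1-Db1 at chr20:4560163-4560362 on the minus strand and RT1-Ba at chr20:4576857-4577056 on the plus strand.
Cd74: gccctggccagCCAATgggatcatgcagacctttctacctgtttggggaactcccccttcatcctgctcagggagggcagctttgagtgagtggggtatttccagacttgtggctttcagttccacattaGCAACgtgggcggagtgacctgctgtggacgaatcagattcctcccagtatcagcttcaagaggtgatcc
RT1-Da: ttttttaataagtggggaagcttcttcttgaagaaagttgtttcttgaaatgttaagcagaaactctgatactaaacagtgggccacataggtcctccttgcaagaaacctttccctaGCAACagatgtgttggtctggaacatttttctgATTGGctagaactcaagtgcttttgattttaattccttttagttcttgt
RT1-Db1: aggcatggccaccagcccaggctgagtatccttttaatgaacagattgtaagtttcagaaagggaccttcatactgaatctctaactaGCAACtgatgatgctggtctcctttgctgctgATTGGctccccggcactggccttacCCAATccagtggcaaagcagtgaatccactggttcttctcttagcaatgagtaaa
RT1-Ba: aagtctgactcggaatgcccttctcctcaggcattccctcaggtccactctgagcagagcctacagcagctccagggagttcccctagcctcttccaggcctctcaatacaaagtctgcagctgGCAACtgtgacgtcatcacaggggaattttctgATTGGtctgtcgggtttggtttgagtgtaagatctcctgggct

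In the 3 RT1 promoters, GCAAC was followed by ATTGG on the gene's strand. The first bases of the matches lay 33 bases apart in RT1-Da, 32 in RT1-Db1 and 33 in RT1-Ba. Counted from the annotated start, GCAAC began at base -82 in RT1-Da, -112 in RT1-Db1 and -76 in RT1-Ba. The Cd74 promoter held GCAAC at base -70 and CCAAT at base -189, with no such pair. Among 33469 promoter windows of 250 bases before to 50 after the start, 35.1% held GCAAC, 37.5% held ATTGG, 1.62% held GCAAC 10 to 50 bases ahead of ATTGG on one strand and 0.4% held it 27 to 37 bases ahead, a range chosen around the distances in the RT1 genes. These matches describe the letters of the sequence, and no factor binding was measured here. Boxes that differ from these cores were not searched for. The lack of an exact pair in Cd74 therefore does not show that its promoter lacks the element. In RefSeq's order along chromosome 20, RT1-Da, RT1-Db2, RT1-Db1, RT1-Ba and RT1-Bb follow each other. RT1-Db2 is a close copy of RT1-Db1, so the counts of RT1-Db1 are uncertain to the extent that reads were shared between the copies.

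**Figure D1:**
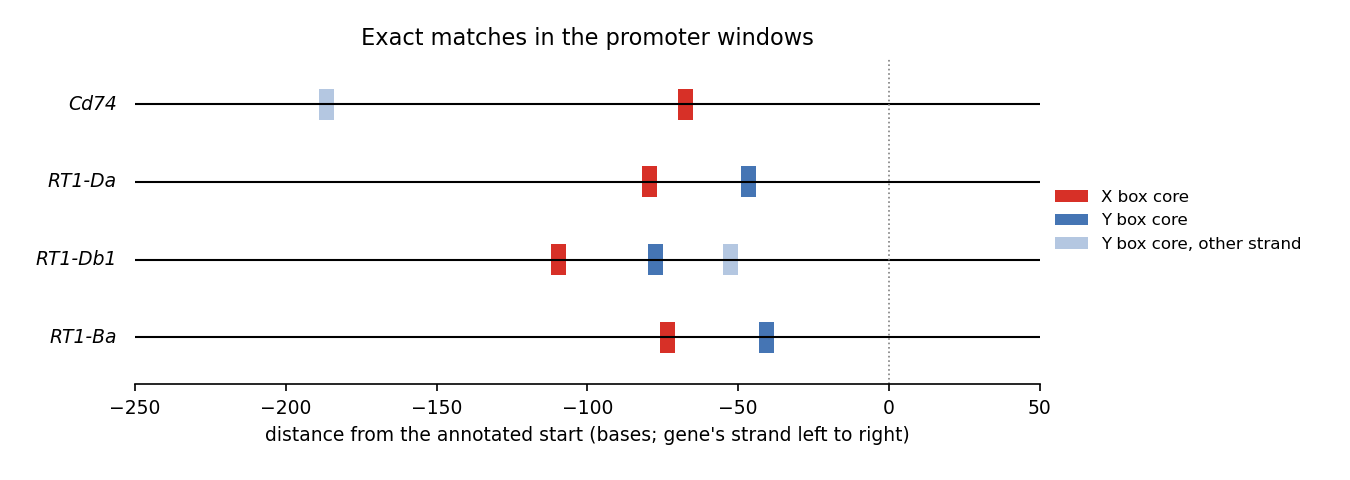
Exact matches to the X box core and the Y box core in the promoter windows of the 4 genes, by distance in bases from the annotated start (dotted line). Red blocks are X box cores, blue blocks are Y box cores and pale blue blocks are Y box cores on the other strand. The 3 RT1 genes each have a red and a blue block 32 or 33 bases apart, and Cd74 has no such exact pair. Boxes that differ from these cores were not searched for.

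Library totals ranged from 21992859 to 31799879 reads counted on genes, and the lowest count of a member in any library was 26 (RT1-Ba in the hippocampus of rat 4). Levels are given as normalised read counts relative to library size (CPM), scaled within each brain area, and are compared within a gene only, because CPM does not allow for gene length. Some hippocampal libraries stood apart. In sham rats 4 and 5 the 10 most counted genes took 44.1% and 40.9% of the reads, against 9.95 to 16.4% in the other hippocampal libraries. Over 33 other genes whose levels marked the individual rat in both cortex and thalamus (correlation of deviations over 0.8), the hippocampal library labelled rat 3 matched rat 8 (r = 0.887, against -0.54 with its own number), and the library labelled rat 8 matched rat 3 (r = 0.806, against -0.21). These libraries belong to different groups, so hippocampal fold changes, permutation tests, ratios and interactions were also computed without them. Of the other 8 hippocampal libraries, 7 matched their own number best and the library of rat 5 matched rat 2 (r = 0.787, against 0.762 with rat 5). The defining markers of the dissected areas and of microglia, macrophages and lymphocytes were not analysed here, because the tables hold identifiers that the reference paired with no names. In tissue RNA, more cells of a type and more RNA per cell cannot be told apart.

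In the perilesional cortex, Cd74 and the 3 class II chains were all upregulated after TBI, by 1.75 to 2.23 times in mean level. In sham-operated animals, Cd74 was at 25.5, 23.5, 31.2, 16.8 and 34.6 CPM in rats 1 to 5. In injured animals it was at 53.7, 63, 63.1, 48.2 and 47.2 CPM in rats 6 to 10, so that the lowest injured animal lay above the highest sham-operated one. The mean rose from 26.3 ± 6.92 to 55 ± 7.72 CPM (SD, n = 5 per group). This gave a log2 fold change of 1.06 (SE 0.17, 95% interval 0.70 to 1.42; edgeR's quasi-likelihood test, Benjamini-Hochberg adjusted p = 0.000661).

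RT1-Da, the alpha chain of the D molecule, was at 3.87, 5.57, 5.66, 3.9 and 7.29 CPM in the cortex of sham rats 1 to 5 and at 11.6, 10.9, 12.8, 9.46 and 9.11 CPM in injured rats 6 to 10. The groups did not overlap here either. RT1-Da had a log2 fold change of 1.03 (SE 0.16, 95% interval 0.68 to 1.38; edgeR adjusted p = 0.000475). The gene listed as RT1-Db1 varied more between animals. RT1-Db1 was at 2.87, 3.09, 2.98, 1.84 and 6.07 CPM in sham rats 1 to 5 and at 11.7, 9.43, 6.4, 6.97 and 3.14 CPM in injured rats 6 to 10. Sham rat 5 and injured rat 10 crossed over, and 4 of the 5 injured animals lay above every sham-operated one. RT1-Db1 had a log2 fold change of 1.15 (SE 0.38, 95% interval 0.31 to 1.99; edgeR adjusted p = 0.0474), close to the threshold of 0.05.

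RT1-Ba, the alpha chain of the B molecule, was at 3.57, 3.09, 3.7, 2.07 and 4.98 CPM in the cortex of sham rats 1 to 5 and at 7.36, 7.46, 5.88, 5.67 and 4.17 CPM in injured rats 6 to 10. Only injured rat 10 lay within the sham range. RT1-Ba rose by a log2 fold change of 0.81 (SE 0.21, 95% interval 0.36 to 1.25; edgeR adjusted p = 0.0113). Over all 17185 genes tested in the cortex, 14.2% were called higher after TBI, and 4 of the 4 members were. Groups that did not overlap, with all injured above all sham-operated animals, were found for 10.2% of genes and for 2 of the 4 members. The median log2 fold change was 1.04 over the members and -0.01 over all genes tested. In a two-sided exact permutation test over the arrangements of 5 against 5 animals, p was 0.00794 for Cd74 and RT1-Da, the smallest this design allows, and 0.0159 for RT1-Db1 and RT1-Ba. The call of RT1-Db1 was lost in edgeR with RLE scaling (adjusted p = 0.0509), with no filter (0.0991), in limma's voom (0.0684), in one fit for all areas (0.0731), and when any 1 of rats 1 to 4 or 6 to 9 was left out (0.0701 to 0.101), and that of RT1-Ba in one fit for all areas (0.123). The share of reads taken by the 10 most counted genes also moved with the group in the cortex. It was 20.3 to 29.6% in sham-operated animals, 14.1, 16.4 and 16.2% in injured rats 6, 9 and 10, and 23.8 and 23.3% in injured rats 7 and 8. With this share as a covariate the log2 fold changes of Cd74, RT1-Da, RT1-Db1 and RT1-Ba were 1.09, 0.97, 1.03 and 0.80, and all but RT1-Db1 passed (edgeR adjusted p = 0.0049, 0.00312, 0.15 and 0.0374).

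**Figure D2:**
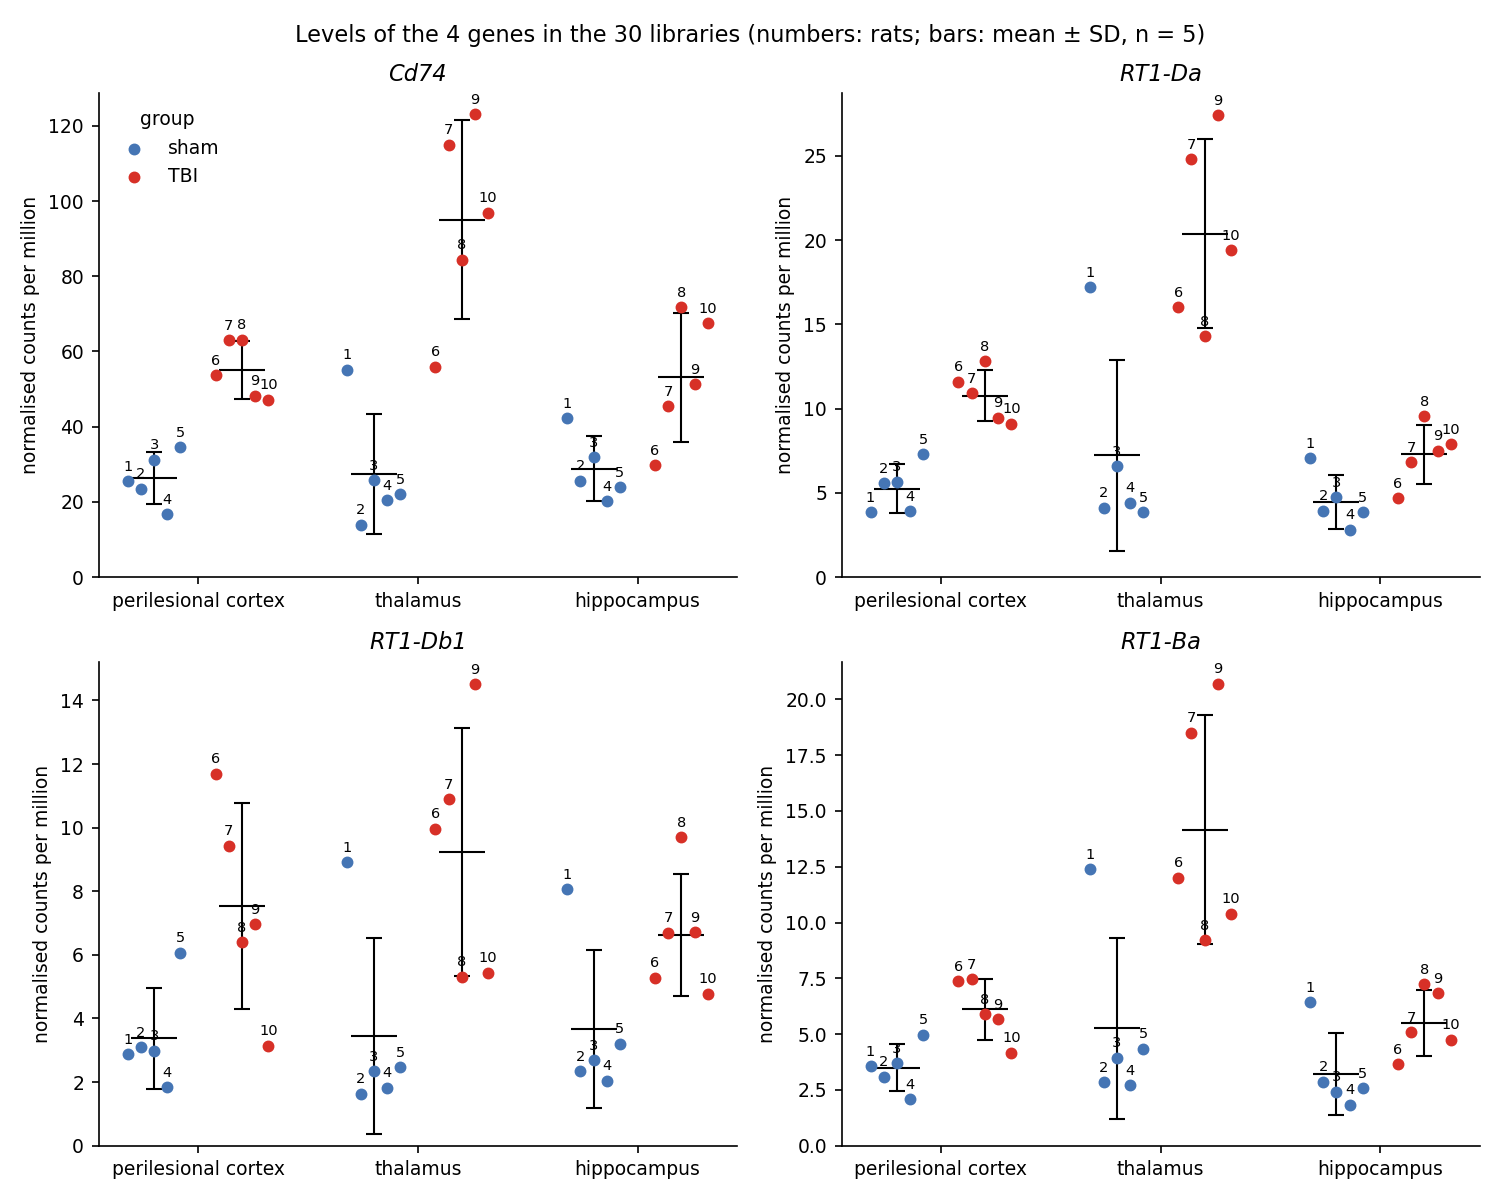
Normalised read counts (CPM) of the 4 genes in each library, by brain area, with the rat's number beside each point (blue, sham; red, TBI). Black bars give the mean ± SD of 5 rats, and each panel has its own axis from 0. In the thalamus, sham rat 1 lies among the injured animals for the 3 RT1 genes and just below injured rat 6 for Cd74, and the groups are apart in the cortex for Cd74 and RT1-Da.

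The thalamus lies far from the impact and is linked to the injured cortex by axons. It had the highest mean level of each of the 4 genes after TBI. By the study's methods, though not by the sample labels, its libraries were read on another instrument. Area and instrument therefore cannot be told apart in this ranking. Thalamic means after TBI were 2.68 to 3.46 times those of sham-operated animals. The differences of Cd74 and RT1-Da passed the test. Cd74 was at 55.1, 13.9, 25.7, 20.5 and 22 CPM in sham rats 1 to 5 and at 56, 115, 84.4, 123 and 96.9 CPM in injured rats 6 to 10. The groups were apart, but sham rat 1 and injured rat 6 almost met. Cd74 rose by a log2 fold change of 1.79 (SE 0.33, 95% interval 1.09 to 2.49; edgeR adjusted p = 0.0213).

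RT1-Da was at 17.2, 4.13, 6.59, 4.42 and 3.85 CPM in the thalamus of sham rats 1 to 5 and at 16, 24.8, 14.3, 27.4 and 19.4 CPM in injured rats 6 to 10. Sham rat 1 lay above injured rats 6 and 8, and the other sham rats lay below every injured one. RT1-Da rose by a log2 fold change of 1.49 (SE 0.38, 95% interval 0.66 to 2.32; edgeR adjusted p = 0.0418).

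RT1-Db1 was at 8.91, 1.64, 2.34, 1.82 and 2.47 CPM in the thalamus of sham rats 1 to 5 and at 9.97, 10.9, 5.31, 14.5 and 5.44 CPM in injured rats 6 to 10. Sham rat 1 exceeded injured rats 8 and 10. Its log2 fold change was 1.41 (SE 0.45, 95% interval 0.43 to 2.39) and did not pass the test (edgeR adjusted p = 0.0828). RT1-Ba was at 12.4, 2.85, 3.95, 2.71 and 4.35 CPM in sham rats 1 to 5 and at 12, 18.5, 9.2, 20.7 and 10.4 CPM in injured rats 6 to 10. Sham rat 1 exceeded 3 of the 5 injured animals, rats 6, 8 and 10. The log2 fold change of 1.42 (SE 0.40, 95% interval 0.56 to 2.28) narrowly missed the threshold (edgeR adjusted p = 0.0542).

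Of the 16605 genes tested in the thalamus, 3.77% were called higher after TBI, and 2 of the 4 members were. All 4 members had an unadjusted p under 0.05 in the direction of a rise, against 12.6% of genes, and 1 of the 4 (Cd74) had groups that did not overlap, against 2.75% of genes. The median log2 fold change was 1.45 over the members and -0.002 over all genes tested. A larger rise than that of Cd74 was found for 0.319% of genes, and a larger rise than that of RT1-Db1, the smallest of the 4, for 0.729%. The two-sided exact permutation p was 0.00794 for Cd74, 0.0238 for RT1-Da and RT1-Db1 and 0.0317 for RT1-Ba.

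These thalamic calls turned on single animals. Without rat 1 the log2 fold change rose to 2.21 for Cd74 (edgeR adjusted p = 0.0041), 2.10 for RT1-Da (adjusted p = 0.00453), 2.16 for RT1-Db1 (adjusted p = 0.00984) and 2.03 for RT1-Ba (adjusted p = 0.00745), so that 4 of the 4 were called, against 3.31% of all genes called higher. Leaving out any 1 of rats 3, 5, 7, 8 and 10 left 0 of the 4 called in edgeR, with all 4 still at an unadjusted p under 0.05. Without rat 3, 5, 7 or 8, edgeR called 0 of all genes tested, and without rat 10 it called 66 higher and 1 lower. In those 5 fits the log2 fold change of Cd74 was 1.71 to 1.83 and its adjusted p was 0.0519 to 0.0669. Leaving out rat 2, 4 or 9 left Cd74 called and RT1-Da not (adjusted p = 0.0723 to 0.0838). Without rat 6, 3 of the 4 were called (RT1-Ba adjusted p = 0.0421), and 7.99% of all genes were called higher, against 3.77% with all rats. The 10 most counted genes took 6.32 to 9.13% of the thalamic reads in sham-operated and 7.53 to 10.5% in injured animals. With this share as a covariate the log2 fold changes of Cd74, RT1-Da, RT1-Db1 and RT1-Ba were 2.04, 1.93, 1.82 and 1.73, and edgeR called none of them (adjusted p = 0.127 to 0.174, unadjusted p = 0.00127 to 0.0129) and 0 of all genes tested. All 4 were called by limma's voom with sample weights and 3 of the 4, without RT1-Db1, by DESeq2. Over all genes, voom called 1342 of 16605 higher and DESeq2 1128 of 17742.

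Sham rat 1 differed from the other sham-operated animals in these genes. Its thalamic level was 2.15 times that of the next highest sham-operated animal for Cd74, 2.61 times for RT1-Da, 3.61 times for RT1-Db1 and 2.86 times for RT1-Ba. At least 2-fold more than in every other sham-operated animal was found in its thalamus for 239 of 15599 genes (1.53%), all 4 members included. In its hippocampus this held for 12 genes (0.0769%), among them RT1-Db1 and RT1-Ba, and in its cortex for 27 genes (0.173%) and no member. In the cortex its levels lay inside the range of the other sham-operated animals, save for RT1-Da, which at 3.87 CPM was the lowest of the 5.

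**Figure D3:**
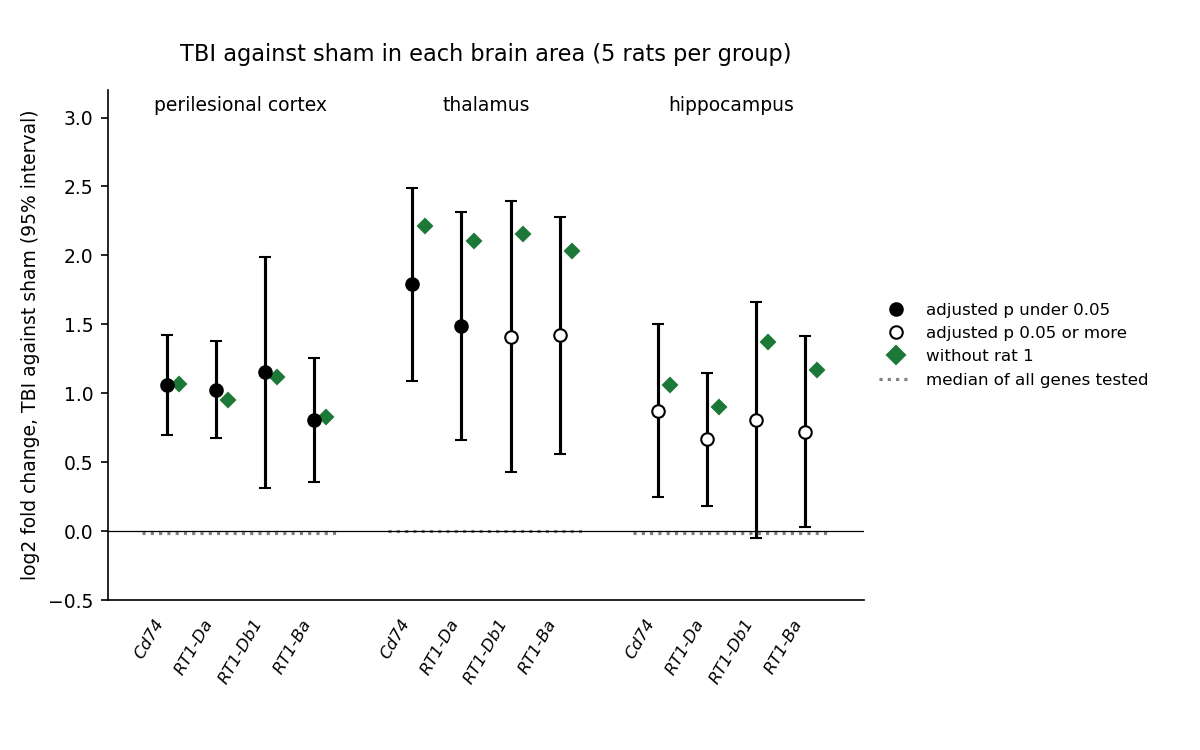
Log2 fold change of TBI against sham for the 4 genes in each brain area, with 95% intervals (5 rats per group). Filled circles passed an adjusted p of 0.05 in edgeR, open circles did not, green diamonds give the value without rat 1 and the dotted line is the median of all genes tested. The diamonds lie at 2.03 to 2.21 in the thalamus and almost on the circles in the cortex.

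In the hippocampus the levels of all 4 genes were higher on average after TBI, by 1.63 to 1.85 times, but none of the differences passed the test over all genes. Cd74 was at 42.3, 25.6, 31.9, 20.2 and 23.9 CPM in the libraries labelled sham rats 1 to 5 and at 29.7, 45.4, 71.8, 51.3 and 67.5 CPM in those labelled injured rats 6 to 10. Injured rat 6 lay within the sham range and the other 4 lay above it. The log2 fold change was 0.87 (SE 0.28, 95% interval 0.25 to 1.50; edgeR adjusted p = 0.505, unadjusted p = 0.0114).

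RT1-Da was at 7.06, 3.94, 4.73, 2.82 and 3.85 CPM in the hippocampus of sham rats 1 to 5 and at 4.68, 6.81, 9.55, 7.5 and 7.87 CPM in injured rats 6 to 10. Sham rat 1 exceeded injured rats 6 and 7, and sham rat 3 was level with injured rat 6. For RT1-Da the log2 fold change was 0.66 (SE 0.22; edgeR adjusted p = 0.505). RT1-Db1 was at 8.06, 2.34, 2.68, 2.04 and 3.21 CPM in sham rats 1 to 5 and at 5.28, 6.7, 9.7, 6.72 and 4.78 CPM in injured rats 6 to 10. Sham rat 1 exceeded 4 of the 5 injured animals, whereas the other sham rats lay below all of them. The log2 fold change was 0.81 (SE 0.38; edgeR adjusted p = 0.609). RT1-Ba was at 6.42, 2.86, 2.41, 1.83 and 2.57 CPM in sham rats 1 to 5 and at 3.66, 5.09, 7.23, 6.82 and 4.75 CPM in injured rats 6 to 10. Again only sham rat 1 lay within the injured range. The log2 fold change was 0.72 (SE 0.31; edgeR adjusted p = 0.575).

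Of the 16963 genes tested in the hippocampus, 0% were called higher after TBI by edgeR, and 0 of the 4 members were. DESeq2 called 8 genes higher and 8 lower, limma's voom called 0, and neither called a member. An unadjusted p under 0.05 with a rise was found for 5.22% of genes and for 3 of the 4 members (Cd74, RT1-Da and RT1-Ba). No member had groups without overlap, against 0.519% of genes. The median log2 fold change was 0.76 over the members and -0.01 over all genes tested, and a larger rise than that of Cd74 was found for 0.46% of genes. The two-sided exact permutation p was 0.0317 to 0.0476, unadjusted, and 0.0571 to 0.171 without the libraries labelled rats 3 and 8, where 0.0286 is the smallest that 4 against 4 animals allow.

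The hippocampal differences became smaller without the libraries that stood apart. Without sham rats 4 and 5 the log2 fold changes of Cd74, RT1-Da, RT1-Db1 and RT1-Ba were 0.68, 0.47, 0.60 and 0.49, and without the libraries labelled rats 3 and 8 they were 0.78, 0.56, 0.52 and 0.50. Without all 4 of these libraries they were 0.52, 0.29, 0.16 and 0.12 (edgeR adjusted p = 0.644 to 0.914). With a covariate for how much of each library its 10 top genes took up, they were 0.57, 0.37, 0.53 and 0.41. Without rat 1 they were larger, at 1.06, 0.90, 1.37 and 1.17, with edgeR adjusted p of 0.143 for RT1-Db1 and 0.463 for Cd74. No member was called in any of these fits. Over all genes, 1.45% were called higher without rats 3 and 8 and 0.434% without rats 3, 4, 5 and 8, and 0 genes were called without rats 4 and 5, without rat 1 or with the covariate.

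Whether the effect of injury differed between areas was tested as an interaction. None of the 4 members passed it in any pair of areas in the edgeR fit without a block, at an unadjusted or an adjusted p of 0.05. With the rat as a block, none passed at an adjusted p of 0.05, whereas an unadjusted p under 0.05 was found for 3 of the 4 between thalamus and hippocampus (11.3% of all genes), for 1 of the 4 between cortex and thalamus (8.77% of all genes) and for 0 of the 4 between cortex and hippocampus (22.1% of all genes). In the fit without a block, the interaction was called at an adjusted p of 0.05 for 0.44% of 17745 genes between cortex and thalamus, 3.04% of 17688 genes between cortex and hippocampus and 0% of 17617 genes between thalamus and hippocampus. The largest difference among the members was that of Cd74, whose log2 fold change was 0.88 greater in the thalamus than in the hippocampus (95% interval -0.05 to 1.81; edgeR adjusted p = 0.406). The same difference for Cd74 with the rat as a block was 0.99 (edgeR unadjusted p = 0.00102, adjusted p = 0.208), and without the hippocampal libraries labelled rats 3 and 8 it was 0.97 (adjusted p = 0.553). In the blocked edgeR fit, RT1-Da and RT1-Ba differed by 0.91 and 0.68 between thalamus and hippocampus (unadjusted p = 0.00655 and 0.0324, adjusted p = 0.302 and 0.395), and Cd74 by -0.76 between cortex and thalamus (unadjusted p = 0.0384, adjusted p = 0.517). Cd74 differed by -0.69 between cortex and thalamus (95% interval -1.50 to 0.12; edgeR adjusted p = 0.641) and by 0.16 between cortex and hippocampus (95% interval -0.54 to 0.86; adjusted p = 0.838). The interval for cortex and thalamus includes a difference of more than 1 log2 unit. The interactions depended on rat 1. Without it, the difference between cortex and thalamus was -1.10 for Cd74, -1.10 for RT1-Da, -1.16 for RT1-Ba and -0.995 for RT1-Db1 (edgeR unadjusted p = 0.00221, 0.00144, 0.00741 and 0.076), against -0.69, -0.42, -0.57 and -0.22 with it. Between thalamus and hippocampus it was then 1.10 for Cd74, 1.15 for RT1-Da, 0.81 for RT1-Ba and 0.74 for RT1-Db1 (edgeR unadjusted p = 0.00395, 0.00175, 0.0374 and 0.0766). No adjusted p without rat 1 was under 0.05, the lowest being 0.123, for RT1-Da between thalamus and hippocampus. Each area enters 2 of the 3 pairs, so the pairs are not separate tests. The thalamic libraries were read on another instrument by the study's methods but not by the sample labels, so area and instrument cannot be told apart.

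In sham-operated animals no member was called different between areas, whereas many other genes were. Between cortex and thalamus 70.8% of 17315 genes were called different, between cortex and hippocampus 44.4% and between thalamus and hippocampus 67.6%, whereas 0 of the 4 members were called for any pair (edgeR; 0 also at an unadjusted p under 0.05). On 1 scale for all 30 libraries, Cd74 averaged 26.8 ± 6.91 CPM in the sham cortex, 24.3 ± 13.9 in the thalamus and 32.1 ± 9.61 in the hippocampus (SD, n = 5). After TBI it averaged 55.2 ± 8.15, 83.2 ± 23.3 and 59.6 ± 19.2 CPM. The injured thalamus had the highest mean of the 6 groups for each of the 4 genes, and the 3 sham groups had the lowest. The injured hippocampus came second for Cd74 and RT1-Ba and the injured cortex for RT1-Da and RT1-Db1. The injured cortex and hippocampus lay within their spread of each other for Cd74, RT1-Db1 and RT1-Ba, whereas RT1-Da averaged 10.8 ± 1.55 CPM in the cortex and 8.17 ± 1.99 CPM in the hippocampus. Without the hippocampal libraries labelled rats 3 and 8, Cd74 in the hippocampus averaged 31.2 ± 10.9 CPM in the sham and 54.3 ± 17.5 CPM in the injured group (SD, n = 4). RT1-Ba in the injured hippocampus then averaged 5.69 ± 1.47 CPM, against 6.13 ± 1.41 in the injured cortex. The injured cortex thus came second for Cd74 and RT1-Ba without those libraries. For RT1-Db1 the injured thalamus, at 8.08 ± 3.42 CPM, was also within the spread of the injured cortex at 7.56 ± 3.27 and the injured hippocampus at 7.44 ± 2.17.

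These results in sham-operated animals depended on rat 1 and on the other libraries used. Over the alternatives, 1 of which left out hippocampal sham rats 3, 4 and 5, cortex minus hippocampus was -0.76 to 0.32 log2 for RT1-Db1. For RT1-Ba it was -0.55 to 0.38 log2, and no member was called for that pair. The 95% interval of the difference between cortex and thalamus was -0.52 to 0.82 log2 for Cd74 and -0.90 to 1.24 log2 for RT1-Db1. Without rat 1, Cd74 was 0.59 log2 higher in the cortex than in the thalamus (edgeR adjusted p = 0.0234) and RT1-Db1 0.98 log2 higher (adjusted p = 0.00838). Cd74 in the thalamus was then lower than in the hippocampus, by a log2 difference of -0.66 (adjusted p = 0.0146). With the rat as a block the same difference was -0.49 (edgeR adjusted p = 0.0471), and 1 of the 4 members was called. Of all 17315 genes, that fit called 5529 higher and 6140 lower in the thalamus than in the hippocampus.

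The 4 genes followed each other closely over the 30 libraries. Pearson's r of log2 CPM was 0.937 between RT1-Da and RT1-Ba, 0.906 between Cd74 and RT1-Da, 0.872 between Cd74 and RT1-Ba, and 0.807 between RT1-Da and RT1-Db1, the loosest pair. Among 15598 other genes with a mean of at least 1 CPM, the 3 other members were within the 4 genes most alike to each member. The remaining place was taken each time by ENSRNOG00000033215, whose r was 0.965 with Cd74, 0.894 with RT1-Da, 0.828 with RT1-Ba and 0.816 with RT1-Db1, for a mean of 0.876. The next gene by mean r was ENSRNOG00000020726 at 0.733, and the median over all 15595 non-members was -0.04, with a 99th percentile of 0.59. The points share the injury and the brain area, so these values are a description.

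ENSRNOG00000033215 averaged 4.79 ± 1.1 CPM in the sham and 9.97 ± 1.62 CPM in the injured cortex, 4.15 ± 3.65 and 16.2 ± 5.47 CPM in the thalamus, and 5.43 ± 1.44 and 11.5 ± 4.72 CPM in the hippocampus (SD, n = 5). It was not tested, because it was chosen for its likeness to the members. Each library was then taken as its deviation from its own group's mean, which removes the mean differences of injury and area. On these deviations r was 0.932 between RT1-Db1 and RT1-Ba and 0.799 between RT1-Db1 and RT1-Da. It was 0.889 between Cd74 and RT1-Da and 0.685 between Cd74 and RT1-Db1. ENSRNOG00000033215 remained the most alike of the non-members, with a mean r of 0.775, against a 99th percentile of 0.405. Its r was 0.89 with Cd74, 0.88 with RT1-Da, 0.72 with RT1-Ba and 0.61 with RT1-Db1. These values include sham rat 1, and likeness was not computed without it. Libraries of the same rat are not independent. Without the hippocampal libraries labelled rats 3 and 8, ENSRNOG00000033215 was again first, with a mean r of 0.879 on levels and 0.777 on deviations. ENSRNOG00000020726 was then no longer second on levels. The second gene on deviations was ENSRNOG00000015063, with a mean r of 0.615. Its mean level was 4.23 CPM in the sham and 3.88 CPM in the injured cortex, 5.48 and 5.27 CPM in the thalamus and 8.87 and 8.64 CPM in the hippocampus, so genes alike to the members within groups were not all higher after TBI.

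The proportions of the class II chains to Cd74 did not pass a test of TBI against sham in any area. In the cortex, reads of RT1-Ba amounted to 11.9 to 14.4% of those of Cd74 in sham-operated and to 8.83 to 13.7% in injured animals. That difference in log2 ratio, -0.26, had the smallest p of the 18 ratios tested (two-sided exact permutation p = 0.0714, adjusted p = 0.81). In the thalamus RT1-Ba was at 13.2 to 22.6% of Cd74 in sham-operated and 10.7 to 21.5% in injured animals, and in the hippocampus at 7.57 to 15.2% and 7.04 to 13.3%. Without the hippocampal libraries labelled rats 3 and 8 the sham range was 9.06 to 15.2% and the injured range was as before, and the exact permutation p of the 6 hippocampal ratios was 0.343 to 0.943. These percentages compare reads and not molecules, since gene length is not allowed for.

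The proportion of RT1-Ba to Cd74 varied with the animal. Injured rat 10 had the lowest ratio of all 10 rats in each area, at 8.83% in the cortex, 10.7% in the thalamus and 7.04% in the hippocampus. Rat 8 was the next lowest in the cortex and thalamus, at 9.32 and 10.9%, and in the hippocampus it was the library labelled rat 3, at 7.57%, while that labelled rat 8 was at 10.1%. Injured rat 6 was among the highest in cortex and thalamus, at 13.7 and 21.5%, and sham rat 1 was at 14, 22.6 and 15.2%.

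Deviations of this log2 ratio from the group mean were correlated between areas over the 10 rats. Between cortex and thalamus Pearson's r was 0.929 (exact permutation within groups, p = 0.00222, adjusted over 21 relations p = 0.0466) and Spearman's rho was 0.77 (exact permutation p = 0.0314, adjusted p = 0.182). Between thalamus and hippocampus r was 0.801 (exact permutation p = 0.00708, adjusted p = 0.0496) and rho 0.915 (exact permutation p = 0.00125, adjusted p = 0.0262). Between cortex and hippocampus r was 0.765 (exact permutation p = 0.00618, adjusted p = 0.0496) and rho 0.673 (exact permutation p = 0.0519, adjusted p = 0.182). Without rats 8 and 10, the farthest from the median, r was 0.848, 0.745 and 0.641, and without rats 3 and 8 it was 0.905, 0.875 and 0.81. No p-value was computed without rats 3 and 8, so those of the hippocampal relations rest on the labelled pairing. This relation was looked at after the ratios had been seen.

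The ratio of RT1-Db1 to Cd74 had r of 0.796, 0.751 and 0.684 for the same pairs of areas (exact permutation, adjusted p = 0.0991, 0.0662 and 0.149). Without rats 6 and 10, the farthest from the median, r was 0.483, 0.591 and 0.267. Rat 10 was again lowest, at 6.66% in the cortex, 5.62% in the thalamus and 7.08% in the hippocampus, and rat 6 was at 21.8, 17.8 and 17.8%. For the ratio of RT1-Da to Cd74 no relation between areas passed the test, with r of -0.22, 0.447 and -0.24 (exact permutation, adjusted p = 0.345 to 0.727). The level of Cd74 itself had r of 0.109 between cortex and thalamus and 0.641 between thalamus and hippocampus (exact permutation, adjusted p = 0.829 and 0.149). Levels of the other members between thalamus and hippocampus had r of 0.637 for RT1-Da, 0.707 for RT1-Db1 and 0.72 for RT1-Ba (exact permutation, adjusted p = 0.221, 0.218 and 0.191). Without rats 3 and 8 these were 0.834, 0.949 and 0.897, and that of Cd74 was 0.754, so levels in these areas then followed each other about as closely as the ratio of RT1-Ba to Cd74 did, at 0.875. Between cortex and thalamus, levels had r of -0.60 for RT1-Da, 0.288 for RT1-Db1 and 0.392 for RT1-Ba (exact permutation, adjusted p = 0.283, 0.61 and 0.54).

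**Figure D4:**
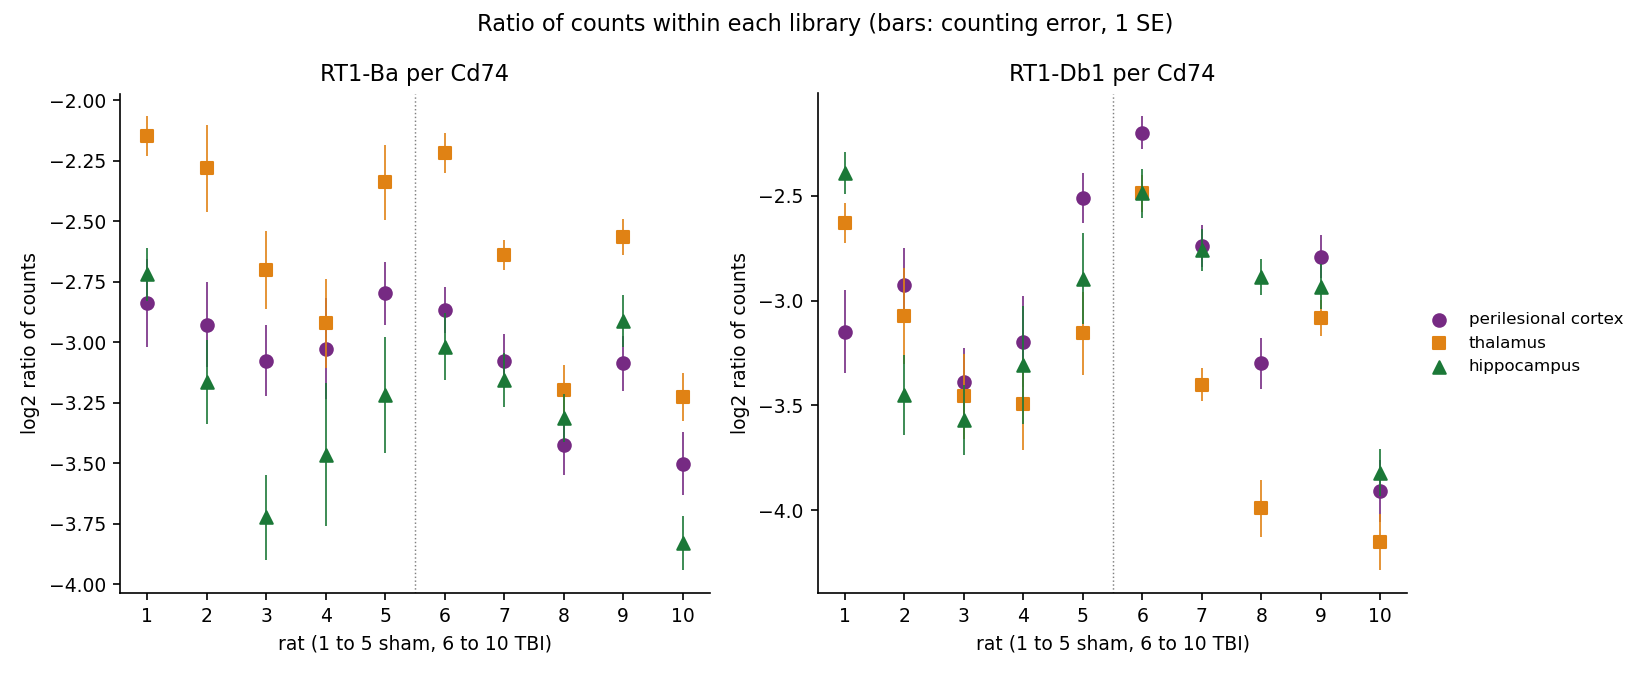
Log2 ratio of the reads of RT1-Ba (left) and RT1-Db1 (right) to those of Cd74 in each library, by rat (1 to 5 sham, 6 to 10 TBI). Marks give the brain area, bars are 1 SE of counting error and the dotted line parts the groups. Rat 10 has the lowest value in all 3 areas in both panels, and thalamic ratios of RT1-Ba to Cd74 lie above the cortical ones of the same rat in 10 of 10 rats. Area and instrument cannot be told apart for the thalamus.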

How the data were processed

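Poly-A RNA libraries of 3 brain areas from each of 10 rats were grouped by the sample labels. The authors aligned the reads to Rnor_5.0 with STAR and deposited unnormalized counts for every Ensembl gene, with a table for each area. The counting tool and the use of strand were not given in the sources used here, so reads of a gene and of an overlapping one cannot be told apart. The study left out some hippocampal libraries of sham-operated rats for low alignment without naming the rats, so whether rats 4 and 5 were among them is not known. All 10 hippocampal libraries were used here. All columns were matched by name, and 0 were left unused.

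In each area, genes were kept by filterByExpr (minimum count 10, minimum total count 15), scaled by TMM and tested in edgeR (robust quasi-likelihood F-test). Benjamini-Hochberg adjustment ran over all genes tested, with a threshold of 0.05 (R 4.3.3, edgeR 4.0.16, limma 3.58.1, DESeq2 1.42.0, scipy 1.17.1). A standard error or interval of a fold change comes from the same fit. Interactions used 20 libraries and the sham areas 15. Likeness was taken over log2 CPM of 30 libraries (prior count 3, genes of at least 1 CPM). Alternatives were DESeq2, RLE scaling, no filter, limma's voom with sample weights, one fit for all areas, leave-one-out, exact permutation, hippocampal libraries left out, the share of the 10 most counted genes as a covariate and the rat as a block. Alternatives chosen after seeing the data were the thalamus without rats 1 and 6, sham areas without rat 1, the covariate in cortex and thalamus, and interactions, likeness, hippocampal means, permutation tests, ratios and ratio correlations without the hippocampal libraries labelled rats 3 and 8. The procedure was tested on simulated counts with a smaller spread between animals than the members had, so that test does not cover their spread.

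The named genes were the 4 members and those most alike to them. Of the 9 genes that the rule for likeness names, the first on both measures and the second on each are given, since the reference paired 0 of 26404 identifiers with a name. For the same reason the lists of antigen presentation genes and of cell type markers were not analysed here. The members and lists were chosen with earlier results of these data known. The rat pairs the areas because the same animals gave them. Over genes, deviations of the same rat correlated with a median r of 0.0266 between cortex and thalamus, 0.106 between cortex and hippocampus and 0.0228 between thalamus and hippocampus. No libraries of a group agreed within counting noise (lowest chi-square divided by its degrees of freedom 15.1), and no other gene had counts identical to those of a member. Replicates are separate animals. The paper and the labels differ on the instrument of the thalamic libraries.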

Additional observations from a re-analysis of the deposited data

Results flagged for a closer look

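Sham rat 1 stood apart from the other 4 sham-operated animals in 6 of the 12 groups of 5 sham libraries examined, 1 for each gene and area, where the gap to the nearest animal was over 0.71 of the whole range (Dixon's test, which chance passes in about 1 of 20 groups). In the thalamus this animal was at 55.1 CPM for Cd74 (nearest 25.7), 17.2 CPM for RT1-Da (nearest 6.59), 8.91 CPM for RT1-Db1 (nearest 2.47) and 12.4 CPM for RT1-Ba (nearest 4.35). In the hippocampus it was at 8.06 CPM for RT1-Db1 (nearest 3.21) and 6.42 CPM for RT1-Ba (nearest 2.86). The 6 groups come from the same animal and from genes that follow each other, so they are not 6 separate observations. None of the 12 groups of injured animals and no cortical group stood out in this way. RT1-Db1 in the sham cortex came close, with a gap of 0.704 of the range for rat 5 (6.07 CPM, nearest 3.09). Cd74 in the sham thalamus passed narrowly, at 0.713.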

How the results depend on the processing

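All 220 values of TBI against sham for the 4 genes, over the alternatives run in the 3 areas, were above 0, and the cause of each lost or gained call was not tested. Cortex: RT1-Db1 lost its call with RLE scaling (log2 fold change 1.15), no filter (1.17), voom (1.03), one fit for all areas (1.13) and the covariate for the 10 most counted genes (1.03), and RT1-Ba in one fit (0.79), which left 2 called. Leaving out 1 rat gave 0.93 to 1.50 for RT1-Db1, and 3 or 4 called. Thalamus: with no filter RT1-Da was 1.47 and no longer called, leaving 1. With the covariate Cd74 (2.04) and RT1-Da (1.93) were not called, leaving 0. RT1-Ba passed in DESeq2 (1.42), and in voom (1.57), one fit (1.40) and without rats 1 and 6 (2.09). RT1-Db1 passed in voom (1.49), one fit (1.39) and without rats 1 and 6 (2.13), and 4 were called in each of these 3. Without rats 1 and 6, 1243 of 16562 genes were called higher. Leaving out 1 rat gave 1.62 to 2.21 for Cd74, 1.33 to 2.10 for RT1-Da, 1.19 to 2.16 for RT1-Db1, 1.24 to 2.03 for RT1-Ba, and 0 to 4 called. Hippocampus: 0 were called in any alternative, and RT1-Db1 had an exact permutation p under 0.05, unadjusted, at 0.98. Sham areas: without rat 1, Cd74 (0.59) and RT1-Db1 (0.98) passed between cortex and thalamus, so 2 were called, and Cd74 (-0.66) between thalamus and hippocampus, so 1 was. The share of all genes called without rat 1 was not counted. With all rats it was 70.8% and 67.6% for these pairs. With the rat as a replicate block Cd74 passed between thalamus and hippocampus too (-0.49), and 1 was called. That fit called 5529 of 17315 genes higher and 6140 lower. The block changed no other call. No member's interaction was called in any alternative, although over all genes edgeR called 256 higher and 281 lower between cortex and hippocampus, against 408 and 640 with the block, 440 and 600 in DESeq2 and 70 and 56 without hippocampal rats 3 and 8. Between thalamus and hippocampus it called 0 and DESeq2 42 and 94, and between cortex and thalamus 66 and 12, against 38 and 11 with the block and 121 and 87 in DESeq2. The list counts and their alternatives were not run.

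The calls of the thalamus, and that of RT1-Db1 in the cortex, depend on the fit and on single animals. Over all genes in the thalamus, 626 were higher and 308 lower in edgeR, against 1128 and 803 in DESeq2, 1342 and 1350 in voom and 1661 and 1796 in one fit, and leaving out 1 rat gave 0 to 1333 higher. In the hippocampus these numbers were 0 and 0, against 8 and 8 in DESeq2 and 246 and 17 without rats 3 and 8. Values of RT1-Db1 and RT1-Ba rest on 26 to 606 reads a library, so counting error adds to their spread.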
